A study of Mus musculus with 12 samples.

Results

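Liver mRNA of Nrf2-null mice was compared with that of wild-type mice across all genes measured, with 3 mice and 3 arrays of each genotype. These are 6 of the 12 arrays of a study that also measured Keap1-KD mice, with less Keap1 throughout the body, and Keap1-HKO mice, made from Keap1-KD mice with an albumin-driven Cre that removes the rest of Keap1 from hepatocytes. All mice were untreated males of the C57BL/6 strain, 8 weeks old, and the Nrf2-null line had been backcrossed onto that strain. The knockout removes Nrf2 in every cell type, and whole liver was extracted, so that fewer cells of a type and less RNA per cell cannot be told apart. Of each gene with its own symbol the probe set with the highest mean over all arrays was used, which gave 5856 genes. The description centres on stress genes and other genes outside the drug-processing families, of which 5701 were tested, with 155 inside those families (P450s, conjugating enzymes, other phase-I enzymes, drug transporters and their nuclear receptors). Values are log2 intensities, and differences are Nrf2-null minus wild-type on the log2 scale.

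Nrf2 is a transcription factor that responds to oxidants and electrophiles. In unstressed cells Keap1, with the ubiquitin ligase Cul3, marks it for degradation by the proteasome. When cysteines of Keap1 are modified, Nrf2 accumulates, pairs with a small Maf protein and binds antioxidant response elements near genes of glutathione and thioredoxin metabolism, NADPH supply, iron handling and drug conjugation. Liver is exposed to ingested and endogenous electrophiles, and the comparison asks which genes differ without Nrf2 when no inducer is given.

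The hepatocyte marker list (14 measured members, among them apolipoprotein and fibrinogen genes) had a median level of 15.5 to 15.6 on all 6 arrays. Kupffer cell, sinusoidal endothelial and stellate cell marker lists had medians between 7.64 and 9.70 on these arrays. Nrf2-null replicate 1 stood apart. Its mean absolute deviation from the group median was 0.487, against 0.0634 to 0.154 on the other 5 arrays, and 699 of its genes lay under an intensity of 100, against 433 to 489. Wild-type replicate 2 carried skeletal muscle transcripts. The 12 muscle markers had a median of 10.36 there and of 2.31 to 2.42 on the other 5 arrays, with summed intensities of 26430 against 80 to 97. Called genes outside the drug-processing families and most list medians are therefore also given without Nrf2-null replicate 1. Of 87 genes checked, which include those given with values here, all 87 kept the sign of their difference without it, and 6 moved by more than 0.5 (Asns, Cd36, Cyp4a14, Ddit4, Mt1 and Mt2). Of the 47 lists, 5 medians turned sign, among them those of the heat shock, hypoxia and metallothionein lists. Of 21 of these genes with several probe sets, Srxn1 alone had probe sets of opposite sign, and in 8 the probe sets differed in whether the groups overlapped (Atg5, Elovl5, Fads2, Gclm, Glrx2, Gpd2, Me1 and Srxn1).

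Few genes differed past the threshold in Nrf2-null mice, and most of them were lower. By limma with Benjamini-Hochberg adjustment over all genes, 24 of the 5856 genes passed an adjusted p of 0.05, which is 0.410% of the genes tested. In total 21 fell (0.359%) and 3 rose (0.0512%). Before adjustment 405 genes had p under 0.05 (6.92%), and without Nrf2-null replicate 1 297 did (5.07%). Outside the drug-processing families 11 genes were called, 9 lower and 2 higher, and inside them 13 of 155, with 12 lower and 1 higher. The median difference of all genes was 0.02.

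**Figure D1:**
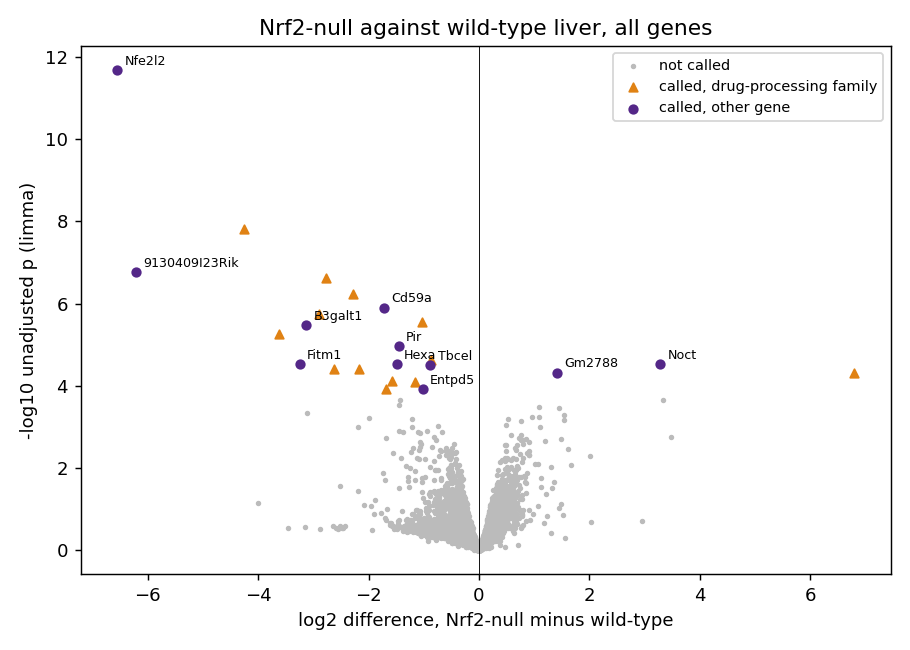
Every gene is a point, with the log2 difference Nrf2-null minus wild-type on the x axis and −log10 of the unadjusted limma p on the y axis (n = 3 arrays per genotype). The 13 called genes of drug-processing families are triangles and the 11 other called genes are labelled circles, of which only Noct and Gm2788 lie to the right of 0.

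The targeted gene followed the label. mRNA of Nfe2l2, which encodes Nrf2, was 2.46, 2.29 and 2.29 in Nrf2-null replicates 1 to 3 and 8.81, 8.94 and 8.93 in the wild-type mice. All 3 Nrf2-null arrays lay under an intensity of 100, the limit of the methods for an expressed probe, so that the change is at least 4.76-fold (log2 difference −6.55, standard error 0.17, adjusted p = 1.21e-08, and −6.61 with adjusted p = 2.41e-07 without replicate 1). Keap1, the repressor of Nrf2, was 8.07, 7.67 and 7.72 in Nrf2-null mice and 7.97, 7.80 and 7.81 in wild-type mice. Its arrays overlapped (log2 difference −0.04, 95% interval −0.36 to 0.28, adjusted p = 0.934, and −0.17 without replicate 1). Of 11 measured genes of the Nrf2 pathway itself, among them Cul3, Mafg, Bach1 and Sqstm1, only Nfe2l2 passed the test.

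Pir and Hexa were among the genes that fell. Pir encodes pirin, an iron-binding nuclear protein. Its mRNA was 6.92, 6.78 and 6.47 in Nrf2-null mice and 8.33, 8.15 and 8.05 in wild-type mice, a 2.74-fold fall (log2 difference −1.45, standard error 0.18, adjusted p = 0.00577), and no Nrf2-null array reached a wild-type one. Without Nrf2-null replicate 1 the difference was −1.55 (adjusted p = 0.00886).
Hexa encodes the alpha subunit of lysosomal hexosaminidase A, which degrades gangliosides. Its level was 9.53, 8.81 and 8.96 in Nrf2-null mice and 10.61, 10.62 and 10.54 in wild-type mice. The groups did not overlap, with replicate 1 the highest of the Nrf2-null arrays (log2 difference −1.49, standard error 0.21, adjusted p = 0.0114, and −1.71 with adjusted p = 0.00427 without replicate 1). Entpd5 encodes an enzyme of the endoplasmic reticulum that removes UDP during the folding of glycoproteins. It was 9.90, 9.94 and 9.60 in Nrf2-null mice and 11.03, 10.54 and 10.93 in wild-type mice, a 2.03-fold fall (log2 difference −1.02, standard error 0.17, adjusted p = 0.0295). All 5 of its probe sets were lower, by −1.02 to −1.44, but the call ended without Nrf2-null replicate 1 (adjusted p = 0.0689).

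Fitm1 encodes a membrane protein of lipid droplet formation. Its mRNA was 5.89, 4.90 and 4.51 in Nrf2-null mice, all under an intensity of 100, and 8.80, 7.97 and 8.26 in wild-type mice. It was thus at least 3.25-fold lower (log2 difference −3.24, standard error 0.46, adjusted p = 0.0114, and −3.64 with adjusted p = 0.00786 without replicate 1). Fitm1 is known for its expression in skeletal muscle, and the wild-type array with muscle transcripts, replicate 2, had the lowest of the 3 wild-type values. The part of muscle RNA in the Fitm1 values was not tested. Tbcel encodes a protein related to a tubulin folding cofactor. It was 8.31, 8.33 and 8.26 in Nrf2-null mice and 9.18, 9.20 and 9.17 in wild-type mice, with the smallest spread of these genes (log2 difference −0.88, standard error 0.13, adjusted p = 0.0114, and adjusted p = 0.0433 without replicate 1). The other Tbcel probe set differed by −1.01.

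9130409I23Rik, a gene that the annotation does not name further, lay far under an intensity of 100 in Nrf2-null mice, with 2.79, 2.62 and 2.58 against 9.37, 8.45 and 8.79 in wild-type mice. It was at least 4.68-fold lower (log2 difference −6.21, standard error 0.50, adjusted p = 0.000335). Cd59a encodes an inhibitor of the membrane attack complex of complement. Its mRNA was 7.90, 7.72 and 7.80 in Nrf2-null mice and 9.53, 9.46 and 9.58 in wild-type mice, a 3.29-fold fall that was nearly the same on each array (log2 difference −1.72, standard error 0.17, adjusted p = 0.00122). A second Cd59a probe set differed by −0.79. B3galt1, a galactosyltransferase, was 3.66, 4.12 and 3.66 against 6.91, 6.68 and 7.23, and against an intensity of 100 the fall was at least 1.23-fold (log2 difference −3.13, standard error 0.34, adjusted p = 0.00216). Without Nrf2-null replicate 1 these 3 genes differed by −6.27, −1.77 and −3.05 (adjusted p = 0.00202, 0.00427 and 0.0098). B3galt1 means were 3.81 in Nrf2-null mice and 6.94, 6.31 and 6.45 in wild-type, Keap1-KD and Keap1-HKO mice. B3galt1 thus passed the authors' filter at an intensity of 100 only through the wild-type mice, which favoured a fall. The part of the filter in the B3galt1 call was not tested.

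Genes that rose were fewer. Noct encodes nocturnin, an enzyme under clock control that turns NADP(H) into NAD(H). It was 9.21, 7.87 and 8.18 in Nrf2-null mice and 5.42, 5.11 and 4.87 in wild-type mice, whose arrays all lay under an intensity of 100. The rise was at least 3.43-fold (log2 difference 3.29, standard error 0.46, adjusted p = 0.0114, and 2.90 with adjusted p = 0.0397 without replicate 1, which was the highest array). Noct means were 8.42 in Nrf2-null mice and 5.13, 5.04 and 5.16 in wild-type, Keap1-KD and Keap1-HKO mice. Noct thus passed the authors' filter on dim probe sets only through the Nrf2-null mice, which favoured a rise. The part of the filter in the Noct call was not tested. Gm2788, a predicted gene, was 8.54, 8.09 and 8.44 against 7.32, 6.78 and 6.74, a 2.66-fold rise (log2 difference 1.41, standard error 0.21, adjusted p = 0.014). Its call ended without replicate 1 (adjusted p = 0.0634). Of the 16 measured genes of the circadian clock and its output, Noct alone was called, and the list's median was 0.03 (0.08 without replicate 1). Cyp17a1, the steroid 17α-hydroxylase, missed the threshold narrowly, with 7.79, 7.60 and 8.06 against 3.86, 3.75 and 5.83 (log2 difference 3.33, standard error 0.60, adjusted p = 0.0506). Its arrays did not overlap, and the wild-type mice were all under an intensity of 100, so that they differed by at least 2.25-fold.

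**Figure D2:**
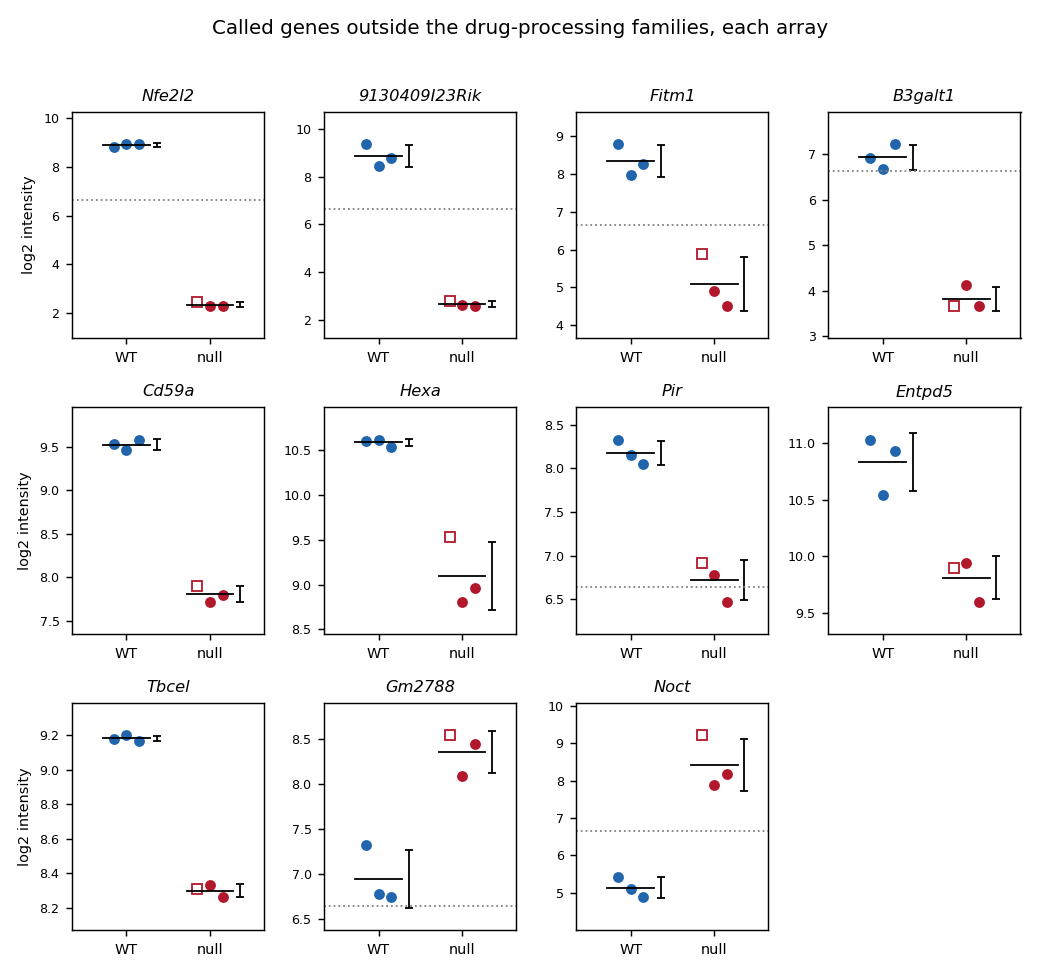
Log2 intensity (y axis) on each array of wild-type (WT, blue) and Nrf2-null (null, red) mice for the 11 called genes outside the drug-processing families. Open squares are Nrf2-null replicate 1, lines are group means, bars are SDs (n = 3), and dotted lines mark an intensity of 100. In none of the 11 genes do the groups overlap.

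In all 24 called genes the 3 Nrf2-null values fell outside the range of the wild-type values on 1 side, as they did in 1219 of all genes (20.8%). Of the 11 outside the drug-processing families, 5 kept their call when any 1 of the 6 arrays was left out, namely Nfe2l2, 9130409I23Rik, Cd59a, B3galt1 and Pir. Fitm1 lost it without Nrf2-null replicate 2 or 3 or wild-type replicate 1 or 3 (adjusted p = 0.0504 to 0.0703). Hexa and Tbcel lost it without Nrf2-null replicate 3 or any wild-type array (adjusted p = 0.0627 to 0.0784). Entpd5 lost it without any 1 array but wild-type replicate 2 (adjusted p = 0.0689 to 0.186). Noct lost it without wild-type replicate 2 or 3 (adjusted p = 0.0618 and 0.0784), and Gm2788 without Nrf2-null replicate 1 or 3 or wild-type replicate 2 or 3 (adjusted p = 0.0634 to 0.1).

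In the drug-processing families the 12 genes that fell were Ces1g, Aox1, Aox3, Ugt2b5, Ugt2b35, Ugt2b36, Gsta2, Gstm1, Gstm3, Cyp2c50, Cyp2c54 and Abcc3, with log2 differences of −0.86 for Cyp2c50 to −4.25 for Ces1g. Cyp4a14 rose (12.71, 9.38 and 12.68 against 6.25, 3.55 and 4.59). It was at least 30.8-fold higher than an intensity of 100, under which all wild-type arrays lay, and without Nrf2-null replicate 1 its call ended (log2 difference 6.23, adjusted p = 0.0634). Of these 13 calls 6 held without any 1 array, and the other 7, those of Aox3, Cyp2c50, Cyp2c54, Cyp4a14, Gsta2, Gstm1 and Ugt2b5, ended without at least 1 of them.

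Promoters of called genes are shown because Nrf2 acts through the antioxidant response element, whose core was searched as TGACNNNGC on both strands. Within 250 bases before and 50 after the start of transcription, 12.4% of all 32851 RefSeq promoters (GRCm38.p6) held it. Of the genes measured here 4822 matched a promoter by symbol, and 844 of them (17.5%) held the core. Among the called genes that fell, 19 had a promoter and 7 held the core (36.8%), all of them outside the drug-processing families, where 10 called genes had a promoter. The 7 were Nfe2l2 itself, Pir, Hexa, Fitm1, Tbcel, B3galt1 and 9130409I23Rik, while the promoters of Cd59a, Entpd5 and Noct did not hold these letters. A match is a description of the sequence and not a bound site. The 250 bases before the start follow for 5 of these genes, with the core in capitals. They lie at chrX:164269181-164269430 (plus strand) for Pir, chr9:59539290-59539539 (plus strand) for Hexa, chr14:55575424-55575673 (plus strand) for Fitm1, chr9:42461429-42461678 (minus strand, 1 of 3 Tbcel promoters) for Tbcel and chr1:181050987-181051236 (plus strand) for 9130409I23Rik.
Pir: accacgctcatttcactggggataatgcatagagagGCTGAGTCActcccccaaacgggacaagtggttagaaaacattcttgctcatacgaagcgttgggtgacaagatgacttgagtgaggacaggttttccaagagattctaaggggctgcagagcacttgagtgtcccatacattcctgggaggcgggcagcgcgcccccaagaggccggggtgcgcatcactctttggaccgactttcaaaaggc
Hexa: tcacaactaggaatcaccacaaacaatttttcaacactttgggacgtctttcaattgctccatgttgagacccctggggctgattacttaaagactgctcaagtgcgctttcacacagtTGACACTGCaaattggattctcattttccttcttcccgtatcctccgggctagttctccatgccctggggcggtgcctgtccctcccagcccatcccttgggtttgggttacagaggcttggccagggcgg
Fitm1: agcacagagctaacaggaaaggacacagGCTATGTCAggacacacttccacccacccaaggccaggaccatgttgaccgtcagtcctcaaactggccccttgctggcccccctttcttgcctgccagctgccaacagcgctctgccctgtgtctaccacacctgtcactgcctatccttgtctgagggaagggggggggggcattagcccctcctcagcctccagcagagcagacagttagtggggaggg
Tbcel: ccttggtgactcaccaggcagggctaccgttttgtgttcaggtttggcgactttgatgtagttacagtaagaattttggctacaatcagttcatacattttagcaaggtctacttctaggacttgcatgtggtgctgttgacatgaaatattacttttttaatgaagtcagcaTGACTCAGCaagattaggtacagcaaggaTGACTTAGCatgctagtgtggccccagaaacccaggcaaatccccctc
9130409I23Rik: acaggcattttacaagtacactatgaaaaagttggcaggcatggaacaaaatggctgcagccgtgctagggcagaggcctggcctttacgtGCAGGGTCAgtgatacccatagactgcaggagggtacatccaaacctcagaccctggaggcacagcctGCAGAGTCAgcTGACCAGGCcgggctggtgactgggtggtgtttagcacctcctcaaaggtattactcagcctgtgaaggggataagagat

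The core began 214 bases before the start in Pir, 131 in Hexa and 222 in Fitm1. In the Tbcel promoter shown it occurred at 77 and 48 bases before the start, and in 9130409I23Rik at 159, 91 and 80 bases. In Pir the match read on the other strand is TGACTCAGC, the same letters as the match at 77 bases of Tbcel.

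Leaving out Nrf2-null replicate 1 alone gave 21 calls (0.359% of the genes), 1 higher (0.0171%) and 20 lower (0.342%), of which 19 were also called with all arrays. Gsta2, Aox3, Entpd5, Cyp4a14 and Gm2788 lost their calls. Of 2 gained genes, Gstm4 is a glutathione transferase of the drug-processing families (log2 difference −1.54, adjusted p = 0.0475). The other was Keg1, a gene named for its expression in kidney (10.33 and 9.81 in Nrf2-null replicates 2 and 3 against 11.91, 11.36 and 11.39, log2 difference −1.48, adjusted p = 0.0398). With replicate 1, at 10.89, its difference was −1.21 (adjusted p = 0.14). The spread used by the test comes from all 4 genotypes, and Keap1-HKO replicate 1 deviated from its own group even more, by a mean of 0.785. Its mates, Keap1-HKO replicates 2 and 3, carried pancreas acinar transcripts (median of 17 markers 13.26 and 9.79, against 2.5 in replicate 1) and skeletal muscle transcripts (median 10.85 and 9.47, against 2.89). The deviation of replicate 1 is thus measured against mates that hold other tissue, and which of the 3 represents liver best was not tested. With all Keap1-HKO and Keap1-KD arrays left out, 13 genes were called. Without both arrays 59 genes were called (1.01%), 10 higher (0.171%) and 49 lower (0.837%), and they included all 24. Outside the drug-processing families there were 9 higher and 30 lower. The fit without both arrays was set with the earlier results known, and the genes named from it were chosen after their values were seen. The median standard error of all genes was 0.231 with all arrays and 0.139 in that fit. A gene can therefore pass there without a larger difference, and its calls are a description and not a further test.

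The thioredoxin system, which reduces oxidized protein cysteines, held several genes that were lower in Nrf2-null mice without passing the test over all arrays. Of its 17 measured genes 0 were called, 4 had an unadjusted p under 0.05 and a lower level and 1 a higher level. Across all genes these shares were 3.62% and 3.30%. Of the 17 genes 9 had a negative and 8 a positive difference. The Nrf2-null group was wholly lower than the wild-type group for 6 (8.76% of all genes) and wholly higher for 4 (12.1%). Srxn1, the sulfiredoxin that repairs overoxidized peroxiredoxins, was 7.64, 7.32 and 7.18 against 7.97, 7.97 and 8.23 (log2 difference −0.68, 95% interval −1.02 to −0.33, adjusted p = 0.163). Txnrd1, the cytosolic thioredoxin reductase, was 8.79, 8.73 and 8.62 against 9.18, 9.13 and 9.11 (log2 difference −0.43, adjusted p = 0.28). Msra, which reduces methionine sulfoxide, was 10.40, 10.10 and 9.85 against 10.72, 10.53 and 10.60 (log2 difference −0.50, adjusted p = 0.388). In all 3 the groups did not overlap, with Nrf2-null replicate 1 nearest to the wild-type mice. Without Nrf2-null and Keap1-HKO replicate 1 Srxn1 and Msra were called (−0.81 and −0.64, adjusted p = 0.0234 and 0.0395) and Txnrd1 was not (−0.47, adjusted p = 0.0989). The dimmer Srxn1 probe set, at 4.67 and 4.62, lay under an intensity of 100 in both groups. Txnrd3, a reductase known from testis, differed by 0.47 in the opposite direction (adjusted p = 0.635). The list's median was −0.03, and −0.16 without replicate 1.

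No glutathione gene passed the test. Of 16 measured genes of glutathione synthesis and recycling 0 were called by limma with or without replicate 1. At an unadjusted p under 0.05, 2 had a higher level (3.30% of all genes) and 0 a lower one (3.62%). Gclc, the catalytic subunit of glutamate-cysteine ligase and the rate-limiting step of glutathione synthesis, was 11.76, 11.60 and 11.46 against 12.11, 11.60 and 11.99 (log2 difference −0.29, 95% interval −0.67 to 0.09, adjusted p = 0.823). For its modifier subunit Gclm the difference was −0.17 (95% interval −0.53 to 0.19, adjusted p = 0.823). A second Gclm probe set, at a mean of 9.37 against 10.35, differed by −0.98 with no overlap of the groups, so that the 2 probe sets disagree in size. The 2 with a higher level were Glrx2, a mitochondrial glutaredoxin (0.32, adjusted p = 0.613), and Oplah, the 5-oxoprolinase (0.62, adjusted p = 0.665). The list's median was −0.08, and −0.10 without replicate 1.

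Of 11 genes that supply NADPH 0 were called. Me1, the malic enzyme, had the lowest p and was 9.57, 8.65 and 10.03 against 11.36, 9.83 and 11.02, so that its groups overlapped (log2 difference −1.32, standard error 0.41, adjusted p = 0.404). Its other probe set, at a mean of 8.24 against 9.93, differed by −1.69 with no overlap. Idh2, the mitochondrial isocitrate dehydrogenase, was 7.75, 7.73 and 7.49 against 8.16, 8.08 and 8.00 (log2 difference −0.42, adjusted p = 0.537). The NADPH list had a median of −0.003, with 2 of 11 genes wholly below the wild-type arrays (8.76% of all genes). Without replicate 1 the median was −0.196, with 6 of 11 wholly below (16.0% of all genes), 0 calls, and differences of −1.40 for Me1 and −0.47 for Idh2. Of 10 genes that remove superoxide and peroxide, among them Sod1, Sod2 and Cat, 0 were called and 0 had an unadjusted p under 0.05, with a median of −0.06 (−0.07 without replicate 1). Among 24 genes of iron and heme handling 0 were called over all arrays. Hfe, the hemochromatosis protein, was 9.54, 9.23 and 8.81 against 9.94, 9.77 and 9.93 (log2 difference −0.69, adjusted p = 0.552). Both of its probe sets lay lower, and without the 2 deviating arrays it was called (−0.86, adjusted p = 0.0182). Hmox2, the constitutive heme oxygenase, was 10.15, 9.84 and 9.92 against 9.49, 9.46 and 9.53 (log2 difference 0.48, adjusted p = 0.584, and 0.39 without replicate 1).

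Most proteasome genes had slightly higher values. Of 37 measured subunits 0 were called, and 30 had a positive difference. All 3 Nrf2-null arrays lay above all wild-type arrays for 15 subunits and below for 0, where 12.1% of all genes lay above and 8.76% below. Psmb3, a subunit of the catalytic core, was 12.65, 12.43 and 12.55 against 12.21, 12.04 and 12.13 (log2 difference 0.42, adjusted p = 0.537). The ATPase subunits Psmc3 and Psmc5 differed by 0.47 and 0.37 (adjusted p = 0.678 and 0.685). The list's median was 0.16, and 0.20 without replicate 1, against 0.02 and 0.01 for all genes. Without that array 22 subunits lay above and 2 below, where the shares of all genes were 18.8% and 16.0%, together 34.8%.

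The unfolded protein, heat shock and integrated stress response lists had 0 calls by limma over all arrays. In the unfolded protein response 21 of 27 genes had a negative difference and 6 a positive one, with a median of −0.16 both with and without replicate 1. At an unadjusted p under 0.05 there were 0 genes. Without that array 3 were lower (3.18% of all genes) and 0 higher (1.90%). The 20 heat shock genes had a median of −0.05, which turned to 0.06 without replicate 1. The integrated stress response (14 genes) had a median of −0.01, and −0.08 without replicate 1. Its member Asns, asparagine synthetase, was 6.65, 4.69 and 4.38 against 5.61, 8.00 and 8.34, so that the groups overlapped (log2 difference −2.08, standard error 1.06, adjusted p = 0.811). Ddit4, an inhibitor of mTOR signalling induced by stress, was 7.04, 5.31 and 5.59 against 6.47, 6.44 and 6.26, with Nrf2-null replicate 1 the highest and the other 2 the lowest values (log2 difference −0.41, adjusted p = 0.823). Without the 2 deviating arrays it was called (−0.94, adjusted p = 0.0123). Among 30 genes of autophagy and lysosome Hexa was the only one called. Wipi1 and Atg5, which act in the formation of autophagosomes, differed by −0.36 and −0.34 and Npc1, the lysosomal cholesterol transporter, by 0.63 (adjusted p = 0.383, 0.563 and 0.584).

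No acute phase gene passed the test. Of 26 measured genes 18 had a positive and 8 a negative difference, and 0 were called by limma. A higher level at an unadjusted p under 0.05 was found for 6 (3.30% of all genes) and a lower one for 1 (3.62%). The Nrf2-null group was wholly higher than the wild-type group for 12 (12.1% of all genes) and wholly lower for 1 (8.76%). Saa3, a serum amyloid A protein, was 8.30, 8.31 and 8.41 against 7.11, 7.31 and 7.35 (log2 difference 1.08, 95% interval 0.59 to 1.57, adjusted p = 0.103). Itih4, an inhibitor heavy chain of plasma, was 14.70, 14.40 and 14.50 against 14.09, 14.00 and 14.02 (log2 difference 0.50, adjusted p = 0.273). Hp, haptoglobin, was 15.28, 15.26 and 15.17 against 14.89, 14.81 and 14.87 (log2 difference 0.38, adjusted p = 0.342). For Itih3 the difference was 0.43 (adjusted p = 0.323). Lcn2, a siderophore-binding protein that also marks neutrophils, was 7.04, 7.18 and 7.46 against 5.47, 6.47 and 5.84 (log2 difference 1.30, adjusted p = 0.416). It was the only neutrophil marker in the table, so that the part of neutrophils was not tested. The list's median was 0.17, and 0.24 without replicate 1.

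Lists of inflammation, immediate early and glucocorticoid-responsive genes had 0 calls by limma over all arrays. Nfkbia, the inhibitor of NF-κB that NF-κB itself induces, was 11.98, 11.88 and 11.30 against 10.53, 10.57 and 10.80 (log2 difference 1.09, 95% interval 0.63 to 1.54, adjusted p = 0.0684). All 4 of its probe sets were higher with no overlap, by 0.52 to 1.20. It was called without Nrf2-null and Keap1-HKO replicate 1 together (0.96, adjusted p = 0.0415) and without Nrf2-null replicate 3 (1.30, adjusted p = 0.0301). Without Nrf2-null replicate 1 alone Nfkbia was not called (0.96, adjusted p = 0.215). Nor was it called without Nrf2-null replicate 2 or any 1 wild-type array (adjusted p = 0.169 to 0.352). Of the 11 measured genes of inflammation and NF-κB 10 had a positive difference, with a median of 0.20 (0.29 without replicate 1). Sgk1, a kinase induced by glucocorticoids, was 10.73, 9.55 and 10.54 against 8.62, 9.13 and 8.46 (log2 difference 1.53, adjusted p = 0.109). When arrays were left out, Sgk1 was called without Nrf2-null replicate 2, the lowest of the 3 (1.90, adjusted p = 0.0202), and not without any other 1 array. Jund, of the AP-1 family, was 8.83, 8.80 and 8.55 against 7.98, 8.03 and 7.98 (log2 difference 0.73, adjusted p = 0.203). Tat, tyrosine aminotransferase, a glucocorticoid target, differed by 0.72 (adjusted p = 0.671). The medians were 0.55 for 19 glucocorticoid-responsive genes and 0.52 for 12 immediate early genes, and 0.59 and 0.44 without replicate 1. Negative differences were found for 7 of the 19 and 2 of the 12 genes. At an unadjusted p under 0.05, 5 and 2 genes were higher and 0 lower, and without replicate 1 5 and 2 were higher and 1 and 0 lower. The shares of all genes were 3.30% higher and 3.62% lower, and 1.90% and 3.18% without replicate 1. Ddit4 is in the glucocorticoid-responsive list and was called lower without the 2 deviating arrays. The median level of that list was 9.73 to 10.59 on Nrf2-null and 8.89 to 9.54 on wild-type arrays. It was 9.29 to 9.64 on Keap1-KD and 10.14 to 10.54 on Keap1-HKO arrays. For immediate early genes it was 8.75 to 9.47 on Nrf2-null and 8.285 to 9.015 on wild-type arrays. On Keap1-KD arrays it was 8.54 to 9.135, and on Keap1-HKO arrays 8.22 to 9.175.

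Genes of fatty acid oxidation and other targets of PPARα, the fatty acid receptor of liver, mostly had higher values. Of 48 measured genes 36 had a positive difference. A higher level at an unadjusted p under 0.05 was found for 15 (3.30% of all genes) and a lower one for 1 (3.62%). The Nrf2-null group was wholly higher than the wild-type group for 23 (12.1% of all genes) and wholly lower for 2 (8.76%). Over all arrays Cyp4a14 alone was called, and no member was called without replicate 1. Cyp4a14 differed by 4.08 in Keap1-KD (adjusted p = 0.766) and −0.37 in Keap1-HKO mice. The list's median level was 10.105 to 10.59 on Nrf2-null and 9.715 to 10.135 on wild-type arrays. Keap1-KD (10.165 to 10.355) and Keap1-HKO arrays (10.145 to 10.31) also lay above the wild-type arrays. Summed intensities were 225490 to 238530 on Keap1-HKO and 232062 to 256711 on wild-type arrays. The part of the wild-type arrays in the list's higher values was not tested. Eci2, an isomerase of unsaturated fatty acids, was 11.32, 10.92 and 11.21 against 10.50, 10.15 and 10.51 (log2 difference 0.76, adjusted p = 0.18). Plin2, which coats lipid droplets, was 12.82, 12.75 and 12.75 against 11.94, 11.52 and 12.12 (log2 difference 0.91, adjusted p = 0.212). Acot2, an acyl-CoA thioesterase, was 7.36, 6.35 and 6.42 against 5.78, 5.05 and 5.73, the latter all under an intensity of 100 (log2 difference 1.19, adjusted p = 0.212). Its near-identical paralog Acot1 differed by 1.61 (adjusted p = 0.266), and signal of the pair may be shared between their probe sets. The list's median was 0.30, and 0.27 without replicate 1, where 9 genes had a higher level at an unadjusted p under 0.05 (1.90% of all genes) and 0 a lower one (3.18%).

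Cd36, a fatty acid transporter in the same list, went the other way, with 5.22, 6.91 and 6.54 against 7.75, 7.85 and 7.40 (log2 difference −1.44, adjusted p = 0.647). Without the 2 deviating arrays its difference was smaller and it was called (−0.94, adjusted p = 0.0225). Pparg, the related receptor of adipocytes, was 4.54, 4.49 and 4.47 against 6.46, 5.57 and 5.83, so that its groups did not overlap but lay under an intensity of 100 (adjusted p = 0.0619, and 0.0473 without those arrays). The 70 measured genes of the mitochondrial respiratory chain had a median of 0.114 (0.075 without replicate 1), with 53 positive and 17 negative differences and 0 calls by limma.

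Other stress lists gave 0 calls by limma outside the drug-processing families. Mt1 and Mt2, the metallothioneins that bind zinc and quench oxidants, varied widely among mice. Mt1 was 8.32, 8.74 and 11.02 in Nrf2-null mice and 6.88, 7.95 and 8.89 in wild-type mice, so that the groups overlapped (log2 difference 1.45, standard error 0.79, adjusted p = 0.823). Mt2 was 7.38, 8.16 and 10.82 against 6.65, 7.33 and 7.83 (log2 difference 1.51, standard error 0.95, adjusted p = 0.823), with Nrf2-null replicate 3 the highest array for both genes. Hypoxia genes (13 measured) had a median of −0.01 (0.003 without replicate 1), and interferon genes (19 measured) had one of 0.13, which was 0.01 without replicate 1. The list of p53 targets and growth arrest (9 measured) had a median of −0.416, and −0.171 without replicate 1, with 6 negative and 3 positive differences. At an unadjusted p under 0.05, 2 of its genes were lower (3.62% of all genes). These were Sesn3, a sestrin (−0.81, adjusted p = 0.678), and Ephx1, the microsomal epoxide hydrolase of the drug-processing families. Ephx1 was 11.35, 11.01 and 10.86 against 13.04, 11.98 and 12.46 (log2 difference −1.42, adjusted p = 0.0507), and it was called without the 2 deviating arrays (−1.56, adjusted p = 0.0221). Among 42 genes of complement and coagulation F11, coagulation factor XI, had the lowest p (−1.04, adjusted p = 0.238), and the list's median was 0.07 (0.02 without replicate 1).

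Genes of fatty acid and triglyceride synthesis (33 measured) had 4 higher and 1 lower levels at an unadjusted p under 0.05, and 0 and 1 without replicate 1. The shares of all genes were 3.30% and 3.62%, and 1.90% and 3.18% without replicate 1. The 4 higher genes were Elovl5, Fads1 and Fads2, which elongate and desaturate fatty acids, and Acaca, acetyl-CoA carboxylase, with log2 differences of 0.64, 0.59, 0.64 and 0.52 (adjusted p = 0.584, 0.659, 0.702 and 0.676). The median was 0.22, and 0.09 without replicate 1. Me1, given above, was the member that lay lower.

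**Figure D3:**
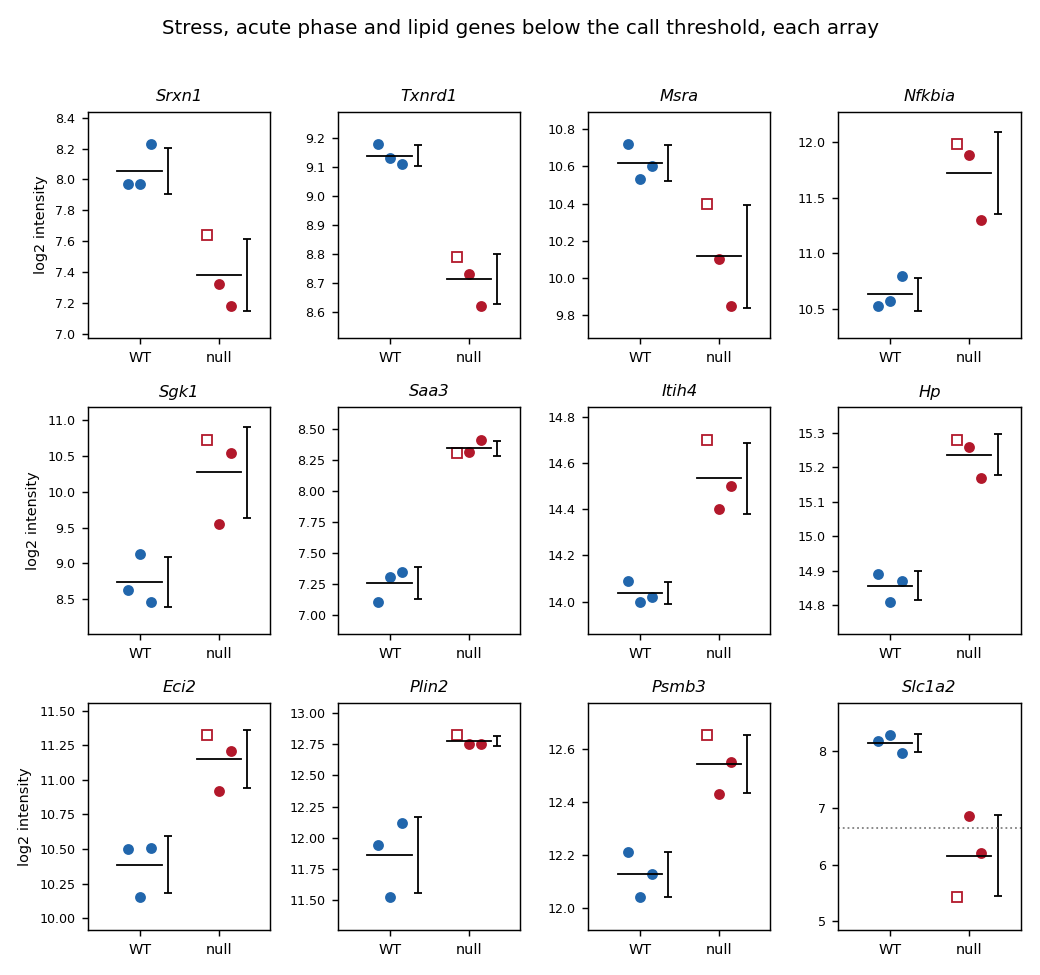
Log2 intensity (y axis) on each wild-type (WT, blue) and Nrf2-null (null, red) array for 12 genes of stress, acute phase and lipid lists that did not pass the test over all arrays. Open squares are Nrf2-null replicate 1, lines are group means, bars are SDs (n = 3) and the dotted line is an intensity of 100. In each of the 12 the groups do not overlap, with Srxn1, Txnrd1, Msra and Slc1a2 lower and the other 8 higher in Nrf2-null mice.

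Most genes of hepatocytes around the central vein lay lower. Of 22 measured pericentral genes 17 had a negative difference. At an unadjusted p under 0.05, 6 were lower (3.62% of all genes) and 1 higher (3.30%). For 8 all Nrf2-null arrays lay below all wild-type arrays (8.76% of all genes) and for 1 above (12.1%). Slc1a2, a glutamate transporter of pericentral hepatocytes, was 5.42, 6.85 and 6.21 against 8.18, 8.28 and 7.97 (log2 difference −1.99, standard error 0.41, adjusted p = 0.107). It was called without the 2 deviating arrays (−1.62, adjusted p = 0.00318), and its other probe set differed by −1.03. Nr1i3, the receptor CAR and a member of the drug-processing families, was 6.84, 5.45 and 5.76 against 7.78, 7.66 and 7.69 (log2 difference −1.69, adjusted p = 0.203), and it was called without those arrays (−2.10, adjusted p = 0.00205). Rhbg, an ammonium transporter, was 6.51, 6.57 and 5.81 against 7.32, 7.58 and 7.34 (log2 difference −1.12, adjusted p = 0.314). Avpr1a, the vasopressin receptor, went the other way (0.77, adjusted p = 0.353). The pericentral median was −0.21, and −0.31 without replicate 1. The 22 periportal genes had a median of 0.14 (0.10 without replicate 1), with 14 positive and 8 negative differences.

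**Figure D4:**
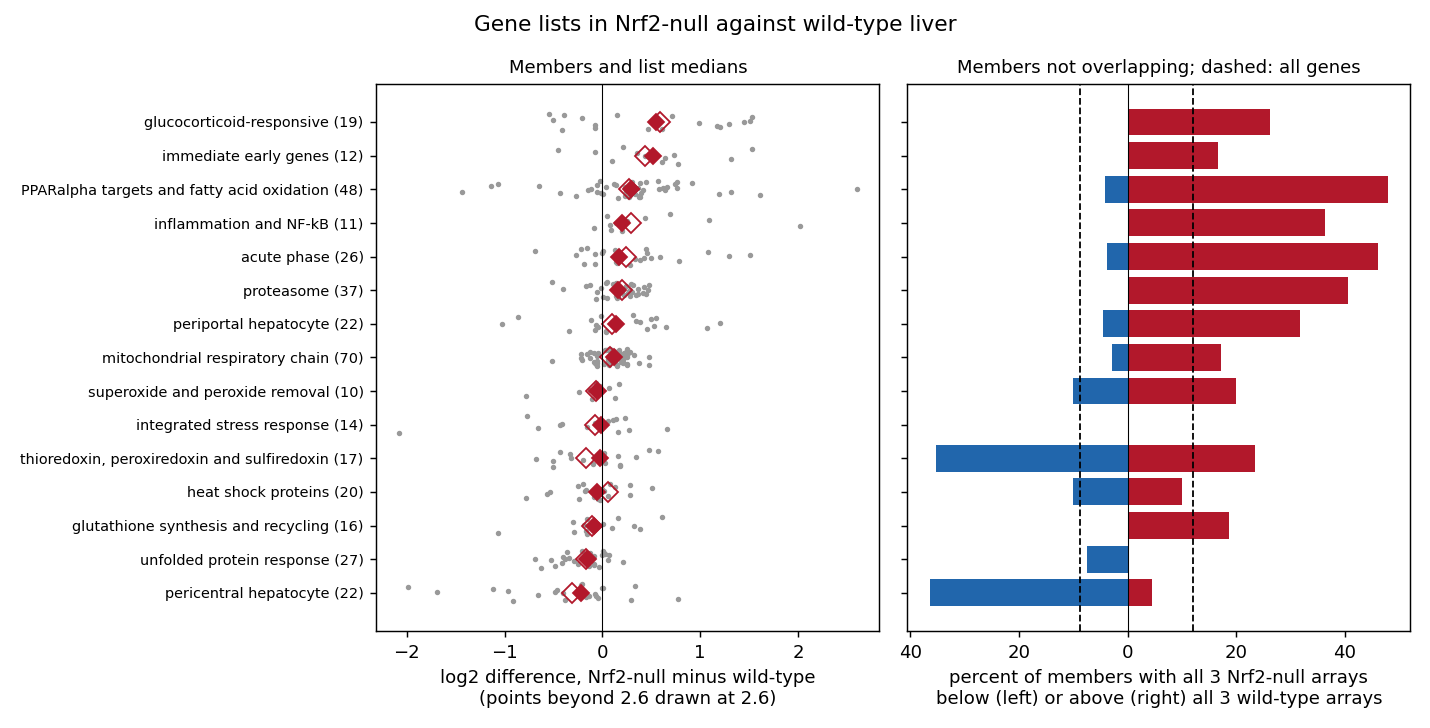
Left, log2 difference Nrf2-null minus wild-type (x axis) of each measured member (grey points) of 15 gene lists (y axis, number measured in brackets), with the list median over all arrays (filled diamonds) and without Nrf2-null replicate 1 (open diamonds). Right, percent of members whose 3 Nrf2-null arrays lay all above (red) or all below (blue) the 3 wild-type arrays, with dashed lines at the shares of all genes, 12.1% and 8.76%.

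In Keap1-KD and Keap1-HKO mice, where less Keap1 means more Nrf2 activity, the same genes were set beside their Nrf2-null values. All comparisons share the 3 wild-type arrays, so they are not independent. In Keap1-KD mice 0.0683% of all genes were called (0.0512% higher, 0.0171% lower) and in Keap1-HKO mice 3.94% (2.10% higher, 1.84% lower). Keap1-HKO replicates 2 and 3 carried pancreas and muscle transcripts, whose part in that share was not tested. Of the 11 called genes outside the drug-processing families, 5 were also called in Keap1-HKO mice in the direction opposite to the Nrf2-null change. Log2 differences from wild-type, with the Nrf2-null value first, Keap1-KD second and Keap1-HKO last, were −1.45, 0.63 and 1.23 for Pir, −1.49, 0.39 and 0.98 for Hexa, −1.02, 0.67 and 1.60 for Entpd5, −3.24, 0.40 and 2.06 for Fitm1 and 1.41, 0.14 and −2.48 for Gm2788. The Keap1-HKO calls had adjusted p = 0.00481, 0.0288, 0.000585, 0.0332 and 0.000103. On Keap1-HKO replicate 1, Pir was 9.76, Hexa 11.90, Entpd5 12.59, Fitm1 11.42 and Gm2788 4.57, each beyond all wild-type arrays on the same side as its mates. That is 1 array, and it deviated most from its group (0.785). The part of pancreas and muscle transcripts in these calls was not tested. Nfe2l2 was also called in Keap1-HKO mice, in the same direction as in Nrf2-null mice (−0.70, adjusted p = 0.048). Tbcel and 9130409I23Rik had differences of 0.38 and 1.11 in Keap1-HKO mice, which were not called (adjusted p = 0.14 and 0.268). For Cd59a, B3galt1 and Noct the Keap1-HKO differences were −0.36, −0.49 and 0.02 (adjusted p = 0.29, 0.437 and 0.977). Srxn1, at −0.68 in Nrf2-null mice, was at 3.05 in Keap1-HKO mice (adjusted p = 1.35e-06).

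**Figure D5:**
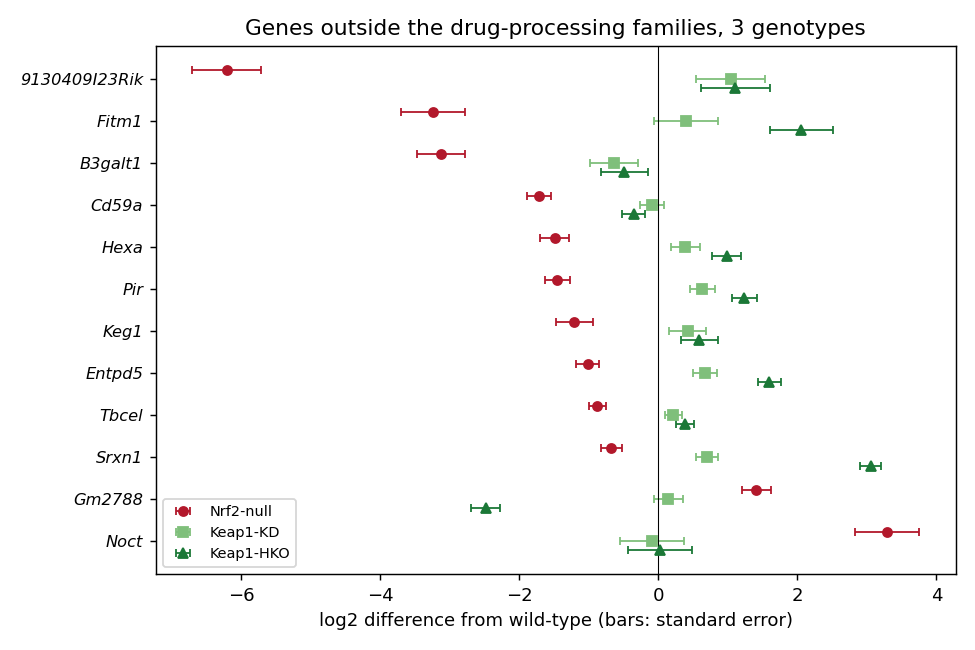
Log2 difference from wild-type (x axis, bars are standard errors) in Nrf2-null (circles), Keap1-KD (squares) and Keap1-HKO mice (triangles) for 12 genes outside the drug-processing families. All comparisons share the same 3 wild-type arrays. Pir, Hexa, Entpd5, Fitm1 and Srxn1 lie left of 0 in Nrf2-null mice and right of 0 in Keap1-HKO mice, while Cd59a and B3galt1 lie left of 0 in both.

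Cd59a and B3galt1 lie on chromosome 2 (GRCm38.p6), as does Nfe2l2. That chromosome holds 7.55% of the measured genes that could be placed, 3 of the 23 called genes with a place, and 11 of the 58 called without the 2 deviating arrays (19.0%). The 11 are Nfe2l2, B3galt1, Cd59a, Slc1a2, Srxn1, Snap23, Haus2, Bloc1s6 and Uck1, which were lower, and Bmp2 and Gpd2, which were higher. This count was made after seeing the calls. B3galt1 was 23 measured genes away from Nfe2l2, and of the 40 nearest measured genes 0 were called by limma with all arrays or without those 2, with a median of −0.17. On the other side of Nfe2l2, Slc1a2 was 47 and Cd59a 55 measured genes away. Snap23, Haus2, Bloc1s6, Bmp2 and Srxn1 were 84 to 163 away. The Nrf2-null mice are of 1 backcrossed line, so that the loss of Nrf2 and other differences of that line near the gene cannot be told apart for these genes.

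Further genes called only without the 2 deviating arrays, chosen after their values were seen, are given here where all Nrf2-null arrays also lay beyond the wild-type ones. Slc3a1, a subunit of the cystine transporter of renal and intestinal epithelium, was 9.28, 9.74 and 9.59 against 7.74, 8.16 and 8.08 (log2 difference 1.67 in that fit, adjusted p = 0.0048). Gpd2, the mitochondrial glycerol-3-phosphate dehydrogenase, was 8.81, 8.88 and 9.80 against 8.12, 8.04 and 8.02 (1.28, adjusted p = 0.0474). Bace1, the beta-secretase, was 8.57, 8.76 and 8.70 against 8.21, 8.14 and 8.21 (0.55, adjusted p = 0.0212), and Bmp2, a growth factor of sinusoidal endothelium that induces hepcidin, was 9.25, 9.08 and 9.16 against 8.59, 8.69 and 8.65 (0.48, adjusted p = 0.0474). Of those that were lower, Acsm1, a medium-chain acyl-CoA synthetase, was 11.25, 10.75 and 10.69 against 11.56, 11.75 and 11.82 (−0.99, adjusted p = 0.012), and Mlec, malectin, a glycan-binding protein of the endoplasmic reticulum, was 8.07, 7.82 and 7.44 against 8.44, 8.56 and 8.55 (−0.89, adjusted p = 0.0115).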

How the data were processed

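Liver RNA of 12 mice, 3 of each of 4 genotypes, was hybridized to Affymetrix mouse genome arrays, 1 per mouse. The authors normalized the scans with GCRMA and deposited log2 intensities, which cover 9622 probe sets and so leave out most dim probes. No scanner files were used here, and signal near background is compressed. Genes were named through the platform annotation (8554 probe sets with 1 symbol, 371 with several, 697 with none), with symbols checked against RefSeq. Where a gene had several probe sets, that of the highest average level was kept, which gave 5856 genes. Groups come from the labels, which call the mice biological replicates, so that p-values measure the spread between mice.

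limma 3.58.1 in R 4.3.3 was fitted to all 12 arrays by genotype, with moderated tests on 8 residual degrees of freedom, Benjamini-Hochberg adjustment over all genes and a threshold of 0.05, and was tested on simulated data. All fold changes derive from the deposited log2 values. Where a group lay under an intensity of 100 on all its arrays, a bound against 100 is given, and no fold where both did. The number of arrays limits the precision. Named genes are Nfe2l2, Keap1, every gene called with all arrays, genes called without Nrf2-null replicate 1 whose groups did not overlap, and, of each list, at most 4 genes of lowest p. Genes named from the fit without 2 deviating arrays, Cyp17a1, and list members beyond that rule were added after their values were seen. The members and lists were chosen with earlier results of these data known. Lists are described by counts and medians beside those of all genes. Alternatives varied the arrays, filter, floor, normalization, probe set, array weights, replicate block and test.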

Additional observations from a re-analysis of the deposited data

How the results depend on the processing

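The number of calls in total moved with the arrays used and less with the scaling. With all arrays it was 24 (3 higher, 21 lower, 11 outside the drug-processing families). Leaving out 1 of the 6 arrays gave 12 to 22 calls, with 0 to 4 higher, 11 to 20 lower and 6 to 12 outside those families. Using only the 6 Nrf2-null and wild-type arrays gave 13 calls, of which 11 were lower. Leaving out Nrf2-null and Keap1-HKO replicate 1 together gave 59 (10 higher, 49 lower, 39 outside). The replicate number as a block gave 44 (11, 33 and 26), all 24 among them. Same-numbered Nrf2-null and wild-type arrays had deviations correlated at 0.164, 0.215 and 0.072, the last under the 0.1 required of every pair, so the numbers were not taken as pairs in this comparison. Nrf2-null arrays correlated with same-numbered Keap1-KD arrays at 0.29, 0.205 and 0.149 and Keap1-HKO arrays at 0.787, 0.685 and 0.699. Differently numbered pairs ranged from −0.292 to 0.208 with Keap1-KD arrays. With Keap1-HKO arrays, replicates 2 and 3 correlated across numbers at 0.622 and 0.426, and pairs that held 1 replicate 1 at −0.799 to −0.582. A shared effect of the number across genotypes was not tested. Array quality weights gave 1379 (684, 695 and 1305) but their estimate did not converge, and weights estimated gene by gene, an alternative chosen after seeing the data, gave 293 (115, 178 and 249). Raising values to 100 gave 8 higher calls and a second quantile normalization 1. In the latter Noct and Gm2788 lost their calls (adjusted p = 0.169 and 0.778), and with median centring Entpd5 did (adjusted p = 0.0535). The methods' analysis of variance with Duncan's test, unadjusted, gave 316 (150, 166 and 269). The filter at 200, median centring, averaged probe sets, the trended robust fit and a fold of at least 1.5 kept every count within 1.5 times. The cause of these moves was not tested. Signs turned for Ddit4 with values raised to 100 (0.13), for Gclm with array quality weights (0.008), and for Keap1, at −0.165 to 0.035 when 1 array was left out, without Nrf2-null replicate 2 or 3 or wild-type replicate 1. Nfkbia passed under the replicate block (1.09, adjusted p = 0.0477). Nfe2l2, Cd59a and Pir kept their calls in every alternative with an adjusted p. With values raised to 100, 9130409I23Rik, B3galt1 and Fitm1 lost theirs (adjusted p = 0.114, 0.802 and 0.11). Of 87 genes in all alternatives, 1372 values kept their direction and side of the threshold, 197 passed it newly, 71 no longer passed and 5 turned sign. Signals under 100 limit what dim genes can show.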
